A study of Homo sapiens with 12 samples.

Results

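The Toll-like receptors, TLR1 to TLR10, were taken from the RNA-seq values of U937 as every transcript whose gene symbol was one of these 10 names. This gave 43 transcripts among 197782, and 10 genes among 44786 symbols. Of the 43 transcripts, 18 had at least 1 read in any library and 25 had none. U937 is a human cell line with monocytic features, which the labels call an AML (acute myeloid leukemia) cell line, and no other line enters here. There were 4 groups of 3 libraries: untreated cells, cells given decitabine (DAC, 200 nM), cells given all-trans retinoic acid (ATRA, 1 µM), and cells given both (DAC + ATRA). DAC, an analogue of deoxycytidine, traps and depletes DNA methyltransferases in dividing cells, whereas ATRA binds and activates nuclear retinoic acid receptors. By the labels, all cells were kept in medium with 20% FCS and 5 ng/ml GM-CSF, DAC was renewed daily over 3 days, treated cells were harvested at 72 h, and untreated cells at 96 h. The study's methods instead give 1 harvest time for all groups and a start of ATRA after the first doses of DAC. They name a medium with a lower share of FCS and do not mention GM-CSF. With the times of the labels, treatment and harvest time cannot be told apart in the comparisons with untreated cells or in the interaction. No source used here says that the 3 libraries of a group came from separate cultures, so the p-values below measure the spread between these libraries only, which may be technical.

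Toll-like receptors recognise conserved microbial or nucleic acid structures and pass the signal through the adaptors MyD88 and TRIF to NF-κB and interferon regulatory factors. TLR2 pairs with TLR1 or TLR6 at the cell surface to bind lipopeptides, TLR4 with its partner MD-2 binds lipopolysaccharide, and TLR5 binds flagellin. TLR3, TLR7, TLR8 and TLR9 sit in endosomes, where TLR3 binds double-stranded RNA, TLR7 and TLR8 single-stranded RNA and TLR9 unmethylated CpG DNA. Monocytic cells are known for TLR2 and TLR4, through which they sense bacterial products. The comparisons ask how each drug alone and both together moved the RNA of these receptors, and whether the combination differed from the sum of the single agents.

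In U937, reads of the family came almost wholly from TLR2, TLR4 and TLR6. TLR6 rose with each single agent and further with both, TLR4 rose with DAC + ATRA and passed the test with neither single agent, and TLR2 fell with each treatment. TLR3 had very few reads, most of them in the DAC + ATRA libraries, through which alone it met the minimum for testing, and its call with DAC + ATRA was lost with a smaller pseudocount. Over the 12 libraries, TLR2 had 10406 reads, TLR4 3762, TLR6 1710, TLR3 93, TLR7 66, TLR9 17, TLR5 16, the coding transcript of TLR1 10 and TLR8 2. TLR10 had 0 reads on its coding transcripts, and 1 read on another transcript. The values are normalized reads, that is reads counted on a transcript and divided by 1 size factor per library. Unless stated otherwise, a gene is given by the coding transcript that had its highest average over all libraries.

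Libraries held 8042435 to 10683593 counted reads, of which 36.3 to 42.5% were mitochondrial, and a count of 3 reads equalled 2.50 to 3.71 normalized reads. The mitochondrial share was 40.6 to 42.5% in untreated libraries, 37.0 to 40.4% with DAC, 38.9 to 41.1% with ATRA and 36.3 to 38.3% with DAC + ATRA. Of the myelomonocytic markers (10 genes), 8 had reads in untreated cells, and CSF1R and CD86 were at 0 there. Their summed level was 58238 to 64944 normalized reads in untreated cells, 27788 to 41860 with DAC, 34335 to 47355 with ATRA and 24553 to 25968 with DAC + ATRA, with MPO as the largest part. Members of the list moved in both directions: MPO fell from a mean of 52120 to 14973 with DAC + ATRA (adjusted p = 6.73e-09) and FUT4 from 5282 to 1921, while ITGAM rose from 202 to 2725 (adjusted p = 2.08e-17) and LYZ from 164 to 1097 (adjusted p = 4.53e-12), and CD4 did not pass (adjusted p = 0.0503). Of the T cell markers (5 genes), 1, 4, 2 and 4 had reads in untreated, DAC, ATRA and DAC + ATRA libraries. Their sum was 2.76 to 10.2 in untreated cells, 297 to 393 with DAC, 4.55 to 9.50 with ATRA and 134 to 180 with DAC + ATRA, nearly all of it CD2. CD3E was at 0 in every group. The B cell markers, mainly CD79A and PAX5 and with CD79B at 0 throughout, summed to 483 to 544, 865 to 929, 499 to 714 and 1639 to 1772 in the same order of groups. The erythroid markers summed to 63.0 to 123 over all groups, with HBB and ALAS2 at 0, and the epithelial markers to at most 21.1, with KRT18 and CDH1 at 0. These zeros are those of 1 coding transcript per gene: over all transcripts, the symbols of CD79B, CSF1R, KRT18, CD86 and CD3E had 39, 111, 4, 2 and 1 reads in the 12 libraries, and the CD79B and CD3E transcripts have 0 bases free of others, so a 0 does not show that a gene was silent. The part of these shifts in the receptor results was not tested. In such bulk RNA, fewer cells that carry a transcript and less of it per cell cannot be told apart.

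Not every receptor could be measured equally well from counts per transcript. Of the 43 transcripts, 39 were placed in GENCODE 44 (hg38), and 14 of these have no base that is free of other placed transcripts on the same strand. The 23014 listed transcripts that were not placed, among them ENST00000366881.5 of TLR5 (0 reads), did not enter this count. They may cover some of the bases taken as free. Only 1 of those 14 had reads. Over all transcripts, 2.02% of 57691 without such a base had at least 10 reads, against 33.5% of 117077 with one. The coding transcript of TLR1 has 28 bases of its own, that of TLR9 has 11 and that of TLR10 has 1, so that their few reads rest on almost no countable sequence and say little about these genes. TLR2 has 4200 such bases, TLR4 8960, TLR7 4902, TLR5 3586, TLR3 3049 and TLR8 986. The TLR6 transcript with reads is not in this annotation, and its position is not given here. TLR1 and TLR6 are neighbouring, closely related genes: 7.69% of all stretches of 50 bases in the annotated TLR6 transcript also occur in TLR1, while TLR2, TLR3 and TLR4 share none with the other receptors examined. Reads from these shared stretches cannot be assigned with certainty to TLR1 or TLR6.

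Among the start-site regions of the 4 receptors that could be tested, that of TLR2 stands apart in its number of CpG dinucleotides. RefSeq (GRCh38.p14) windows were at hand for 7 of the 10 genes, and the 250 bases before the start were used. The regions of TLR2 and TLR6 are shown because these genes moved in opposite directions with DAC, with ATRA and with both. Capitals mark CpG dinucleotides, 5′ to 3′ on the gene's strand. The TLR2 region is chr4:153684030-153684279 (plus strand) and the TLR6 region chr4:38856818-38857067 (minus strand).
TLR2: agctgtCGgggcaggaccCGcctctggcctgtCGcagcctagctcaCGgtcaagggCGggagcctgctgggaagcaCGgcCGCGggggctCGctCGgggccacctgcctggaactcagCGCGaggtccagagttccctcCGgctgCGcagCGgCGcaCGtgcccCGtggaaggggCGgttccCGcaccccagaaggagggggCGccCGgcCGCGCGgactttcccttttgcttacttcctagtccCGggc
TLR6: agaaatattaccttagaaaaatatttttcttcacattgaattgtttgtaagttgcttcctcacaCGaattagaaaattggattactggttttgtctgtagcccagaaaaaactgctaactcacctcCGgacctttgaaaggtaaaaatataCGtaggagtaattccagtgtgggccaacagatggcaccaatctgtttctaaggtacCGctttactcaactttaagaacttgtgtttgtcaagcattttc
TLR2 has 26 CpGs in this window and TLR6 has 4, against a median of 11 over 35116 promoters. At least as many as TLR2 are found in 19.6% of all promoters, and at most as many as TLR6 in 34.3%. TLR4 has 5, TLR8 4, TLR3 3 and TLR9 0, and TLR5 has 19. The counted TLR2 transcript is a single exon (ENST00000260010.6, chr4:153701500-153705699, plus strand) that begins 17220 bases downstream of this RefSeq start. As the counted TLR6 transcript has no position here, the TLR6 window may not lie at its start. No methylation was measured in the data used here, so these counts describe the sequence only, and their relation to the changes was not tested.

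TLR2 was the most abundant receptor and fell in all treated groups. Normalized reads were 1065, 1102 and 1134 in the untreated libraries, 910, 815 and 793 with DAC, 829, 735 and 830 with ATRA, and 615, 604 and 606 with DAC + ATRA. The untreated libraries were thus highest, the DAC + ATRA libraries lowest and closest together, and the single agents lay between without overlapping either. Against untreated cells, the log2 fold change was -0.39 ± 0.097 (SE; adjusted p = 0.00205) with DAC, -0.47 ± 0.097 (adjusted p = 0.00179) with ATRA and -0.85 ± 0.097 (adjusted p = 2.03e-07) with DAC + ATRA. These and all adjusted p-values below are from limma over 9016 protein-coding transcripts, with a threshold of 0.01, unless another tool or fit is named. DAC + ATRA was also lower than DAC alone (log2 fold change -0.46, adjusted p = 0.00161) and ATRA alone (-0.39, adjusted p = 0.00249). The interaction, which is 0 when the log2 changes of both agents add up, was 0.00 with a 95% interval from -0.28 to 0.29. Apart from the fall with DAC + ATRA against untreated cells, the TLR2 calls were close to the threshold. The DAC call was lost without DAC library 6 (adjusted p = 0.0124), untreated library 2 (0.0102) or untreated library 3 (0.0137), and the ATRA call without ATRA library 8 (0.0166), untreated library 2 (0.0115) or untreated library 3 (0.0149), or with only the groups compared in the fit (0.0107). The call of DAC + ATRA against ATRA was lost with no filter on low values (0.0113), with only the groups compared in the fit (0.0125), and without DAC + ATRA library 11 (0.0110) or 12 (0.0109), and that against DAC without DAC library 4 (0.0126).

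TLR6, the partner of TLR2 for diacylated lipopeptides, rose in all treated groups. The counted transcript is ENST00000436693.6. Its normalized reads were 60.7, 61.0 and 60.0 in untreated cells, 138, 180 and 142 with DAC, 115, 90.1 and 94.9 with ATRA, and 244, 274 and 252 with DAC + ATRA. No group overlapped another. The log2 fold change was 1.32 ± 0.147 (SE; adjusted p = 2.02e-07) with DAC, 0.71 ± 0.147 (adjusted p = 0.00175) with ATRA and 2.06 ± 0.147 (adjusted p = 1.80e-10) with DAC + ATRA, a 4.18-fold rise. DAC + ATRA exceeded DAC by 0.74 (adjusted p = 0.000903) and ATRA by 1.36 (adjusted p = 1.52e-07) on the log2 scale. The interaction was 0.04, with an interval from -0.40 to 0.47. The ATRA call was lost without ATRA library 7 (log2 fold change 0.60, adjusted p = 0.0139) and with only the groups compared in the fit (0.71, adjusted p = 0.0122).

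As the partners moved in opposite directions, the ratio of TLR6 to TLR2 reads shifted within libraries. It was 0.0551 ± 0.00202 (SD, n = 3) in untreated cells, 0.184 ± 0.0347 under DAC, 0.125 ± 0.0125 under ATRA and 0.422 ± 0.0284 under DAC + ATRA. The transcripts differ in countable length, so the ratio compares groups and is no ratio of molecules. TLR1, the alternative partner of TLR2, had too few reads on its coding transcript (0 in untreated cells, 2, 4 and 4 under DAC, ATRA and DAC + ATRA). Most of the 117 reads of the TLR1 symbol, 98, were on ENST00000510552.1 (chr4:38790677-38794633, minus strand), an annotated transcript without a defined coding sequence. This transcript had 1, 2 and 2 reads in untreated libraries, 14, 11 and 11 with DAC, 7, 3 and 6 with ATRA, and 7, 11 and 23 with DAC + ATRA. The DAC, ATRA and DAC + ATRA libraries were all above the untreated ones, and the DAC + ATRA libraries spread from 6.33 to 28.4 normalized reads. The transcript reached the minimum for testing in the DAC and DAC + ATRA libraries alone, the groups in which it is high, so its fitted values are given as a description. With all transcripts in the fit (19373 tested), it rose by 2.40 (adjusted p = 0.000139) with DAC and 2.49 (adjusted p = 6.86e-05) with DAC + ATRA on the log2 scale, and the change with ATRA was 1.20 (adjusted p = 0.103). DAC + ATRA differed from DAC by 0.09 (adjusted p = 0.937) and from ATRA by 1.28 (adjusted p = 0.0287). In that fit, 33.5% of transcripts were called with DAC, 6.97% with ATRA, 41.6% with DAC + ATRA, 8.77% between DAC + ATRA and DAC, 29.4% between DAC + ATRA and ATRA, and 1.51% for the interaction.

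TLR4, the receptor for lipopolysaccharide, was higher with the combination. Its counted transcript is ENST00000355622.6, which GENCODE 44 holds in a later version at chr9:117704403-117724735 (plus strand, 3 exons). Normalized reads were 258, 209 and 171 in untreated cells, 250, 200 and 184 with DAC, 352, 257 and 282 with ATRA, and 475, 513 and 592 with DAC + ATRA. Every DAC + ATRA library was above every other library, while the DAC and untreated libraries lay in the same range and the lowest ATRA library reached into the untreated range. The log2 fold change was -0.00 (95% interval from -0.34 to 0.33; adjusted p = 0.991) with DAC, 0.49 ± 0.160 (SE; adjusted p = 0.0455) with ATRA and 1.32 ± 0.160 (adjusted p = 5.03e-07) with DAC + ATRA. DAC + ATRA was higher than DAC by 1.32 (adjusted p = 3.31e-06) and higher than ATRA by 0.83 (adjusted p = 0.000212). The interaction was 0.83, with an interval from 0.36 to 1.30, and did not pass in limma (adjusted p = 0.0343). It did pass with DESeq2 (0.89, adjusted p = 0.00142) and with edgeR and TMM scaling (0.93, adjusted p = 0.00641), but not with edgeR and DESeq2's size factors (0.84, adjusted p = 0.0246), nor with edgeR and TMM without DAC library 6 (0.81, adjusted p = 0.0223). Over all alternatives its adjusted p ran from 0.00142 to 0.113. The ratio of TLR4 to TLR2 reads was 0.194 ± 0.0461 (SD, n = 3) in untreated cells and 0.866 ± 0.104 with DAC + ATRA.

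The window before the TLR4 start (RefSeq, chr9:117704153-117704402, plus strand) is shown for its repeated GAGGAA, the core of sites bound by PU.1, a myeloid transcription factor; capitals mark it on either strand (TTCCTC on the strand shown).
TLR4: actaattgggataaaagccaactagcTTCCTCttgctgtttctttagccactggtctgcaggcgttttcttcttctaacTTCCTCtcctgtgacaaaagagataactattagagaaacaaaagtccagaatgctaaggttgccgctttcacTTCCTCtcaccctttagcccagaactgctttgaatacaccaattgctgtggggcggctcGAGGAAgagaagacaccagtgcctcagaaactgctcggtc
There are 4 matches, which begin 224, 171, 99 and 40 bases before the start. A match on either strand is found in 23.6% of all promoters, and 4 or more in 18 of 35116 (0.0513%). Within the family, TLR9 has 2 matches and TLR6 has 1, and TLR2, TLR3, TLR5 and TLR8 have none in this window. The retinoid receptor half-site AGGTCA, present in 12.1% of promoters, is in none of the 7 windows. These motifs were chosen after the sequences were seen, and a match is no proof of a bound site. The mRNA of PU.1 itself (SPI1) had 127, 109, 160 and 118 normalized reads on average in untreated, DAC, ATRA and DAC + ATRA libraries, and passed the test in none of the 3 comparisons with untreated cells (adjusted p = 0.237, 0.178 and 0.586).

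TLR3, the endosomal sensor of double-stranded RNA, had few reads. Its counted transcript is ENST00000296795.7 (GENCODE 44 holds a later version at chr4:186069156-186088073, plus strand, 5 exons). The libraries held 3, 1 and 5 reads in untreated cells, 4, 7 and 4 with DAC, 5, 7 and 0 with ATRA, and 20, 22 and 15 with DAC + ATRA. Normalized, the means were 2.76 ± 1.85 (SD, n = 3), 5.04 ± 1.55, 3.88 ± 3.41 and 19.9 ± 2.81, so that all DAC + ATRA libraries lay above all others and the remaining groups overlapped. The log2 fold change, which the added pseudocount of 1 makes smaller for low values, was 2.60 ± 0.588 (SE; adjusted p = 0.000920) with DAC + ATRA, 0.79 ± 0.588 (adjusted p = 0.275) with DAC and 0.07 ± 0.588 (adjusted p = 0.980) with ATRA. DAC + ATRA was higher than ATRA by 2.53 (adjusted p = 0.00154). Without ATRA library 9, which had 0 reads, this was 1.61 (adjusted p = 0.00647) and the change with ATRA 0.99 (adjusted p = 0.145). The difference from DAC, 1.81, did not pass (adjusted p = 0.0384; edgeR with TMM, 2.01, adjusted p = 0.00399). The interaction of 1.75 had an interval from 0.00 to 3.49 (adjusted p = 0.292), and was 0.82 without ATRA library 9 (adjusted p = 0.448). TLR3 passed the minimum for testing only through its DAC + ATRA libraries, and with a pseudocount of 0.1 its rise with DAC + ATRA was 3.06 and that against ATRA 3.71, and both missed the threshold (adjusted p = 0.0373 and 0.0182).

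The TLR3 window (RefSeq, chr4:186068906-186069155, plus strand) is shown for the letters TTCNNNGAA, the form of STAT sites that answer interferon, marked by capitals.
TLR3: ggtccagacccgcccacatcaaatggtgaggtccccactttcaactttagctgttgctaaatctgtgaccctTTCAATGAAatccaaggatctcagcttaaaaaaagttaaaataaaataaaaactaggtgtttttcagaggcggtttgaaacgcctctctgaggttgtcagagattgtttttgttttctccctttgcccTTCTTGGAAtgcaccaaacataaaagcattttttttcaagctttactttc
It holds 2 matches, 178 and 50 bases before the start. The pattern reads alike on both strands, 6.57% of promoters hold a match and 0.356% hold 2 or more, and no other family member with a window has one. A further TTTCACTTTC, which on the opposite strand reads as GAAA, any 2 bases and GAAA again (the core of interferon-stimulated response elements), begins 4 bases before the TLR3 start and runs across it. In windows that include 50 bases after the start, 3.57% of promoters hold this pattern. TLR3 is the only one of the 7 receptors with it, and has no match in the 250 bases before the start alone. These 2 patterns, like those searched for TLR4, were chosen after the sequences were seen, so the shares describe how common the letters are and say nothing more of TLR3.

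Of the receptors below the minimum for testing, TLR5, TLR7 and TLR8 have at least 100 countable bases, though TLR8 had only 2 reads. TLR5 (ENST00000540964.5, chr1:223109406-223137287, minus strand, 4 exons) had 0 reads in each untreated and each DAC library, 2, 2 and 2 in ATRA libraries and 4, 3 and 3 in DAC + ATRA libraries. Reads were thus seen in all 6 libraries with ATRA and in none of the 6 without. The DAC + ATRA mean was 3.81 times the limit that 3 reads over the untreated group would set, and the ATRA mean 2.03 times. This limit covers the counting error of the untreated reads, and not that of the 10 and 6 treated reads. Without the filter on low values, limma called TLR5 with DAC + ATRA (adjusted p = 0.00122) but not with ATRA (adjusted p = 0.123). In that fit, 4783 of 25317 transcripts were called with DAC + ATRA and 782 with ATRA. The libraries without ATRA all hold 0 reads and so show no spread, and the call is given as a description only. TLR7 (ENST00000380659.3, GENCODE 44 later version at chrX:12867072-12890361, 3 exons) has nearly all of its bases free of other transcripts. It had 11, 3 and 9 reads in untreated libraries, 8, 3 and 12 with DAC, 4, 4 and 6 with ATRA, and 1, 3 and 2 with DAC + ATRA, and the untreated and DAC + ATRA ranges met at 3 reads. Without the filter, its log2 fold change with DAC + ATRA was -1.27 (adjusted p = 0.0527). TLR8 had 2 reads, both with DAC + ATRA, and TLR9 had 3 to 5 reads per group, so no difference was detectable at this depth.

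**Figure D1:**
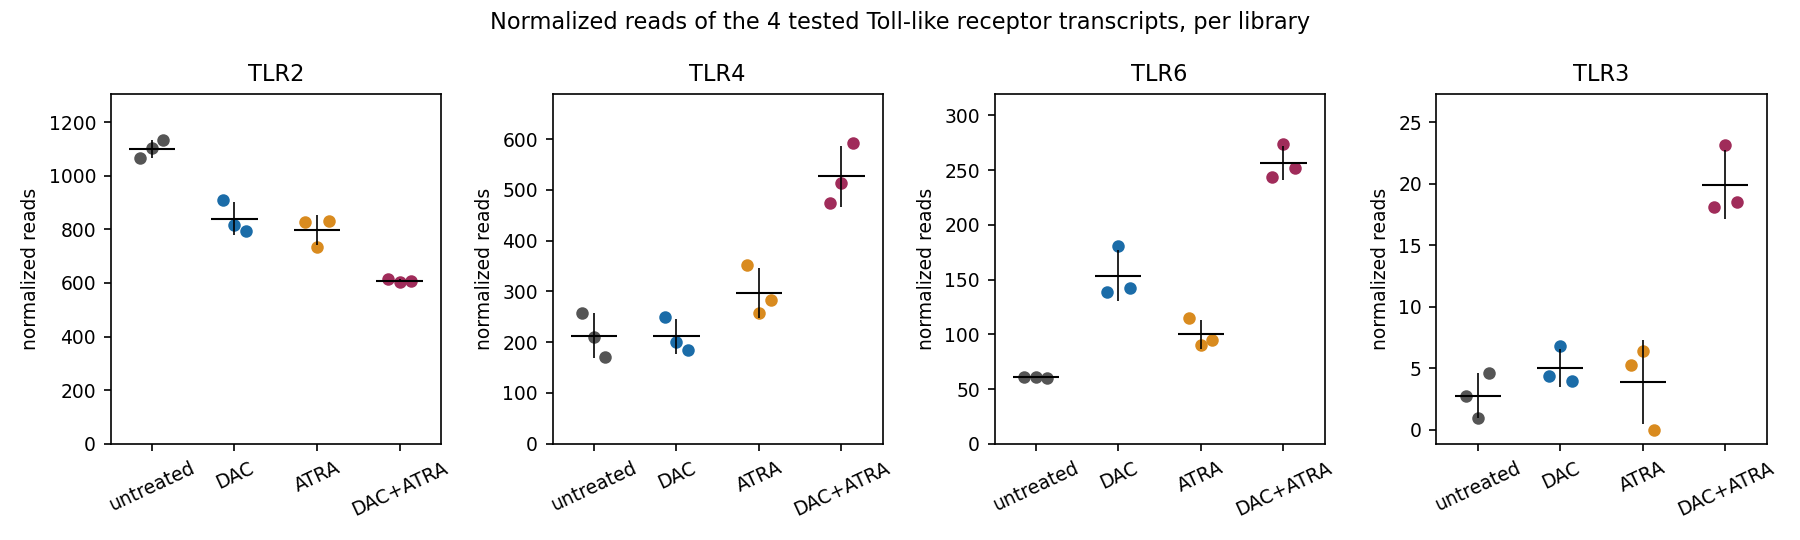
Normalized reads (vertical axis, linear and with its own scale in each panel) of TLR2, TLR4, TLR6 and TLR3 in the 4 groups. Points are libraries, horizontal bars group means and vertical lines ± 1 SD (n = 3); TLR2 falls from 1101 to 608 on average, while the DAC + ATRA libraries are highest for the other 3 genes.

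**Figure D2:**
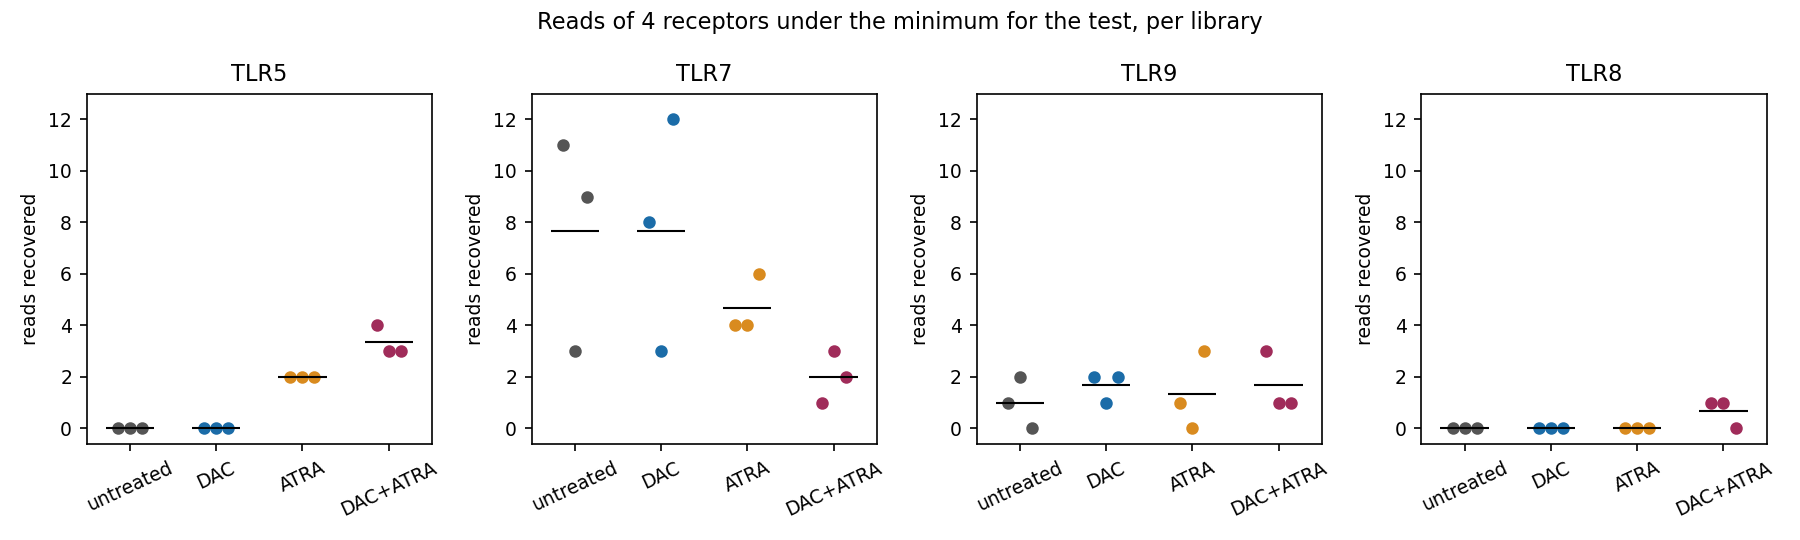
Reads recovered per library (vertical axis, not normalized) for TLR5, TLR7, TLR9 and TLR8, with group means as bars. TLR5 has reads in the 6 libraries with ATRA and 0 in the others, and no library of any of these genes exceeds 12 reads.

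Taken per kb of countable sequence and averaged over the groups, the order of levels was TLR2, TLR4, TLR3, TLR7, TLR5, TLR8. Genes with under 100 countable bases and TLR6, whose length is unknown here, were left out, and for all but TLR2 and TLR5 the length is that of a later transcript version. In untreated cells, TLR2 had 262 ± 8.21 normalized reads per kb (SD, n = 3), TLR4 23.8 ± 4.89, TLR7 1.44 ± 0.785 and TLR3 0.906 ± 0.608, and TLR5 and TLR8 had 0. TLR7 and TLR3 overlapped there. With DAC + ATRA, TLR2 had 145 ± 1.37, TLR4 58.8 ± 6.68, TLR3 6.54 ± 0.921, TLR5 0.974 ± 0.0821, TLR8 0.662 ± 0.578 and TLR7 0.444 ± 0.236. TLR2, TLR4 and TLR3 were separate from each other and from the rest, and TLR8 overlapped both TLR5 and TLR7.

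Across the family, 4 coding transcripts could be tested. With DAC, 1 rose and 1 fell, where 39.3% of all 9016 transcripts were called (30.6% higher, 8.7% lower). With ATRA, 1 rose and 1 fell, against 9.14% called (6.47% higher, 2.67% lower). With DAC + ATRA, 3 rose and 1 fell, against 46.8% called (32.6% higher, 14.2% lower). TLR3, 1 of these 3, met the minimum for testing through its DAC + ATRA libraries alone, and without it there were 2 rises and 1 fall. DAC + ATRA against DAC gave 2 rises and 1 fall, against 11.3% called (6.08% higher, 5.26% lower). DAC + ATRA against ATRA gave 3 rises and 1 fall, against 34.8% called (25.9% higher, 8.88% lower), and without TLR3 2 rises and 1 fall. The median log2 fold change of the 4 was 0.39, 0.28 and 1.69 under DAC, ATRA and DAC + ATRA, and -0.00, 0.49 and 1.32 without TLR3. For the interaction there were 0 calls in limma at 0.01, against 2.46% called (0.787% higher, 1.67% lower), with 2 of 4 transcripts at an unadjusted p under 0.05, against 17.1% of all, and 1 of 3 without TLR3. There was 1 call, TLR4, with edgeR and TMM (2.54% called) and with DESeq2 (3.78% called), and 0 with edgeR and DESeq2's size factors or with edgeR and TMM without DAC library 6. The median of all tested transcripts was itself shifted by 0.22, 0.00 and 0.20 under DAC, ATRA and DAC + ATRA on the log2 scale, and by 0.02, -0.01 and 0.06 with edgeR's TMM scaling. Under TMM, TLR2 changed by -0.60, -0.49 and -1.0, TLR4 by -0.21, 0.45 and 1.16, TLR6 by 1.14, 0.69 and 1.94, and TLR3 by 0.65, 0.38 and 2.66 with DAC, ATRA and DAC + ATRA. The called changes thus kept their direction, and a change of TLR4 with DAC was not called on either scale (edgeR, adjusted p = 0.228). The share of rises among all calls was 77.9% with DAC, 70.8% with ATRA, 69.7% with DAC + ATRA and 74.5% for DAC + ATRA against ATRA, but 58.9%, 60.6%, 59.0% and 63.7% under TMM.

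**Figure D3:**
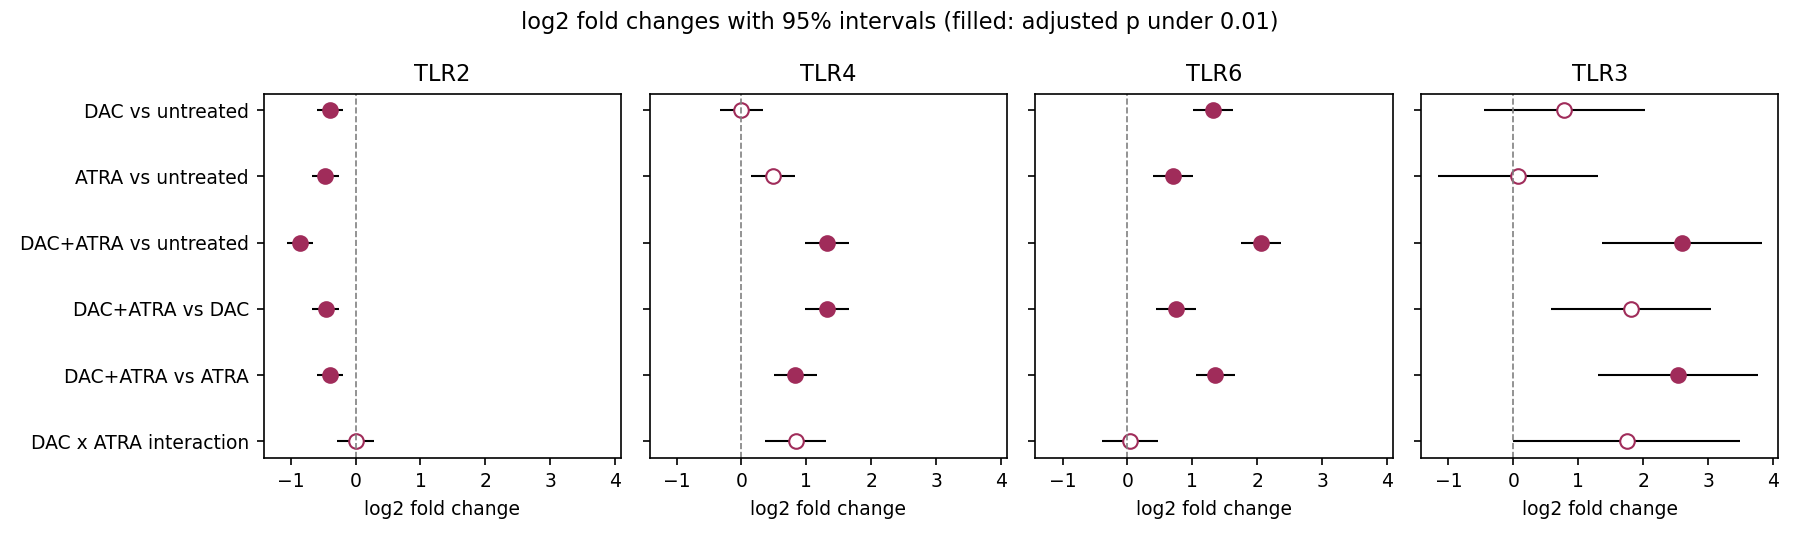
Log2 fold changes (horizontal axis, same scale in all panels) of the 4 tested receptors in the 5 pairwise comparisons and the interaction, with 95% intervals as lines. Filled circles passed an adjusted p of 0.01 in limma; the intervals of TLR2 lie below 0 and those of TLR6 above 0 in all 5 pairwise comparisons, and TLR3 has the widest.

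Transcripts whose 3 log2 fold changes against untreated cells were most like those of each receptor, by root-mean-square (RMS) difference over these 3 values, were listed by a fixed rule. For TLR2 they were SNX2 (0.0191), GRK6 (0.0276) and NPM1 (0.0355), and for TLR6 CAPZB (0.0402), PARP9 (0.0404) and CXCL8 (0.0645). For TLR4 they were EIF1B (0.0771), RNF170 (0.0927) and HNMT (0.132), and for TLR3 SYNJ2 (0.155), FBXO39 (0.241) and SLC6A17 (0.246). The lists share no transcript.

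The surrounding pathway was described with 73 genes in 7 lists, of which 37 had a coding transcript that could be tested. With DAC 15 rose and 3 fell (39.3% of all 9016 tested were called), with ATRA 6 rose and 2 fell (9.14%), and with DAC + ATRA 21 rose and 4 fell (46.8%). Of the 37, 8 had no untreated library at the minimum of 10 normalized reads and so entered through treated libraries alone: LBP, CTSK, RIPK1, SIGIRR, IL1RL1, CXCL10, PTGS2 and IL12B. Over the other 29, 11 rose and 2 fell with DAC, 6 rose and 2 fell with ATRA, and 14 rose and 4 fell with DAC + ATRA, with medians of 0.42, 0.20 and 0.40. Over all 37, the median log2 fold change was 0.56, 0.23 and 0.79, beside 0.22, 0.00 and 0.20 over all tested transcripts. With edgeR and TMM, 14 rose and 5 fell with DAC, 6 rose and 2 fell with ATRA and 21 rose and 4 fell with DAC + ATRA, and no called gene had the opposite sign. HSP90B1 lost its call with DAC there, and REL and IRAK3 became lower past the threshold. Of the 36 genes not tested, 13 had at least 100 reads over all transcripts of the symbol. Among them were the adaptor gene MYD88 with 709 and the kinase gene IRAK4 with 2846. The coding transcript used for each held 0 and 21 of these reads. These genes are thus expressed but were not measured here by a coding transcript. The plot of pathway genes gives the log2 fold change of each tested member.

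Among co-receptors and accessory proteins, 3 of 8 were tested, and with DAC + ATRA 2 rose and none fell (32.6% of all tested rose), of which LBP had no untreated library at the minimum. CD180, a receptor-like protein that modulates TLR4 in B cells and myeloid cells, had 748, 1107, 2815 and 5224 normalized reads on average in untreated, DAC, ATRA and DAC + ATRA cells. It rose by 0.56 (adjusted p = 5.66e-05), 1.91 (adjusted p = 6.62e-12) and 2.80 (adjusted p = 1.49e-15) on the log2 scale. LY86 (MD-1), the partner of CD180, had means of 449, 412, 498 and 415 and passed in no comparison. LBP, which carries lipopolysaccharide to CD14, had means of 6.73, 1.05, 11.7 and 67.6. It met the minimum for testing in the ATRA and DAC + ATRA libraries alone, the groups in which it is high, so its fitted values are given as a description. The log2 fold change was 3.14 with DAC + ATRA (adjusted p = 4.9e-07), and DAC left about 1 read per library (adjusted p = 0.000128), a level like that of the pseudocount of 1. Its interaction, the only positive one past the threshold in limma among the pathway genes (adjusted p = 2.09e-05), rests on this low level, and DESeq2 gave no adjusted p for it. The interaction of IRAK2 passed with edgeR and TMM (0.67, adjusted p = 0.00453), DESeq2 (0.63, adjusted p = 0.00167) and scaling by library size (0.64, adjusted p = 0.00957), and that of CD180 with DESeq2 (0.38, adjusted p = 0.00996). CD14 and LY96 (MD-2), through which TLR4 receives lipopolysaccharide, had 8 reads and 1 read over the 12 libraries. The CD14 transcript used has 0 bases free of other transcripts and that of LY96 has 129, so these low counts cannot be read as absence.

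For folding, trafficking and processing, 8 of 11 genes were tested. With DAC 4 rose and 1 fell (39.3% of all tested were called), with ATRA 1 rose and 1 fell (9.14%), and with DAC + ATRA 3 rose and 1 fell (46.8%). CTSK had no untreated library at the minimum, and over the other 7 there were 3 rises and 1 fall with DAC, 1 and 1 with ATRA, and 2 and 1 with DAC + ATRA. Endosomal receptors are cut by lysosomal proteases. CTSK, 1 of these, had means of 3.97, 18.7, 2.85 and 22.8 normalized reads in untreated, DAC, ATRA and DAC + ATRA cells, on a transcript with 0 bases free of other transcripts. Of the other proteases, CTSS had a log2 fold change of 1.57 and CTSB of 0.64 with DAC + ATRA. CTSS rose in all 3 comparisons, from a mean of 542 to 846, 904 and 1615 under DAC, ATRA and DAC + ATRA. TASL, which links endosomal TLRs to IRF5, fell in all 3, from 1121 to 706, 755 and 614. HSP90B1, the chaperone of most TLRs, rose with DAC (0.75, adjusted p = 0.00825; edgeR with TMM, 0.56, adjusted p = 0.0451) on 1 transcript with few reads and had 0.61 with DAC + ATRA (adjusted p = 0.0246). UNC93B1, which escorts the endosomal receptors, had 0.65 with DAC (adjusted p = 0.0108) and 0.34 with DAC + ATRA, and did not pass.

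Of the adaptors, 4 of 6 were tested, and 3 rose with DAC + ATRA and 1 with each single agent, where 32.6% of all tested rose with DAC + ATRA, 30.6% with DAC and 6.47% with ATRA. PIK3AP1 (BCAP), which joins TLRs to PI3-kinase, was the gene with both single-agent rises, of 0.88 and 1.09. It reached 1.10 with both agents, and its interaction passed in the negative direction (-0.88, adjusted p = 0.000506). TIRAP, the bridge from TLR2 and TLR4 to MyD88, rose by 1.14 and TICAM1 (TRIF), the adaptor of TLR3 and TLR4, by 0.62 with DAC + ATRA. The TIRAP transcript held 167 of the 542 reads of the symbol, and its call was lost with DESeq2 (1.08, adjusted p = 0.0346). The lowest value was that of SARM1, with 0.11 (adjusted p = 0.636).

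Among kinases and ubiquitin ligases, 7 of 15 were tested, of which 2 rose under DAC, 1 rose under ATRA, and 4 rose and 1 fell under DAC + ATRA. Over all tested, 39.3%, 9.14% and 46.8% were called, and the share in this list was below that with DAC. IRAK2, a kinase of the MyD88 complex, had the highest log2 fold change with ATRA and with DAC + ATRA. Its means were 365, 540, 1183 and 2594, and it rose by 0.55, 1.68 and 2.82 on the log2 scale. TBK1 and IKBKE, the kinases that activate IRF3, rose by 0.88 and 0.79 with DAC + ATRA, and CHUK (IKKα) by 0.40, a call lost with size factors from protein-coding transcripts (0.27, adjusted p = 0.0113). TAB1 was the lowest and fell by 0.37 on the log2 scale. RIPK1, which had no untreated library at the minimum, had 1.14 with DAC (adjusted p = 0.0509) and 1.26 with DAC + ATRA (adjusted p = 0.0276), and TRAF6 had 0.03 with DAC + ATRA (adjusted p = 0.869).

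Of the transcription factors of the pathway, 5 of 11 were tested, and 1 rose and 1 fell with DAC and with DAC + ATRA, where 39.3% and 46.8% of all tested were called. JUN, a part of AP-1, rose with DAC (1.72) and DAC + ATRA (1.41) and fell by 0.78 with ATRA. The RELA transcript that could be tested fell by 1.15 with DAC and 1.72 with DAC + ATRA. It held 370 of the 909 reads of the RELA symbol, so this is a value of 1 transcript and not of the gene. REL, IRF8 and FOS passed in none of the 3 comparisons with untreated cells in limma.

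Among the inhibitors, 5 of 10 were tested. With DAC 2 rose, with ATRA 1 rose, and with DAC + ATRA 3 rose and 1 fell, where 39.3%, 9.14% and 46.8% of all tested were called. IL1RL1 and SIGIRR had no untreated library at the minimum. IL1RL1 (ST2), the IL-33 receptor, which can hold back MyD88 and TIRAP, had 0 reads in untreated cells, 328, 2 and 110 under DAC, ATRA and DAC + ATRA over the 3 libraries. This is at least 121-fold higher with DAC and at least 41.7-fold with DAC + ATRA against 3 reads over the untreated group, while the 2 reads with ATRA allow no fold. The list medians over the 5 genes were 0.57, 0.43 and 1.29 with DAC, ATRA and DAC + ATRA, but 0.42, -0.09 and -0.03 over the 3 genes without IL1RL1 and SIGIRR, of which 1, 1 and 1 rose and 0, 0 and 1 fell. With IL1RL1 set to its ratio to the limit of 3 reads, the medians over the 5 genes were 0.57, -0.09 and 1.29. CYLD, a deubiquitinase, rose in all 3 comparisons (0.95, 0.43 and 1.29), but its call with ATRA was lost with scaling by library size (0.36, adjusted p = 0.0173). The SIGIRR transcript rose by 1.71 with DAC + ATRA, lost its call with DESeq2 (1.75, adjusted p = 0.0202), and held 97 of the 442 reads of the symbol. IRAK3 (IRAK-M), the lowest, fell by 0.33 with DAC + ATRA.

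Of the response genes, which TLR signalling induces in myeloid cells, 5 of 12 were tested, of which 4, 1 and 5 rose under DAC, ATRA and DAC + ATRA and none fell, where 30.6%, 6.47% and 32.6% of all tested rose. CXCL10, PTGS2 and IL12B had no untreated library at the minimum and entered through the groups in which they are high, so these counts are no support for a rise of the list. IL1B and CXCL8 were above the minimum in every library; both rose with DAC and DAC + ATRA, and IL1B with ATRA. IL1B, an inflammatory cytokine gene, had means of 62.4, 317, 249 and 593, and its interaction passed in the negative direction (-1.06, adjusted p = 0.00392). The neutrophil chemokine gene CXCL8 had means of 147, 357, 224 and 628. CXCL10, an interferon target, had 4.59, 23.8, 6.0 and 45.4, and PTGS2 had 2.75, 45.5, 2.27 and 14.7, highest with DAC alone. IL12B had 0.919, 1.97, 0.629 and 13.4, and passed with DAC + ATRA (adjusted p = 6.98e-05) on few reads. The labels name no TLR ligand among the treatments, and TNF, CCL3 and CCL4 are listed at 0 reads on every transcript; whether their reads could be counted was not tested.

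**Figure D4:**
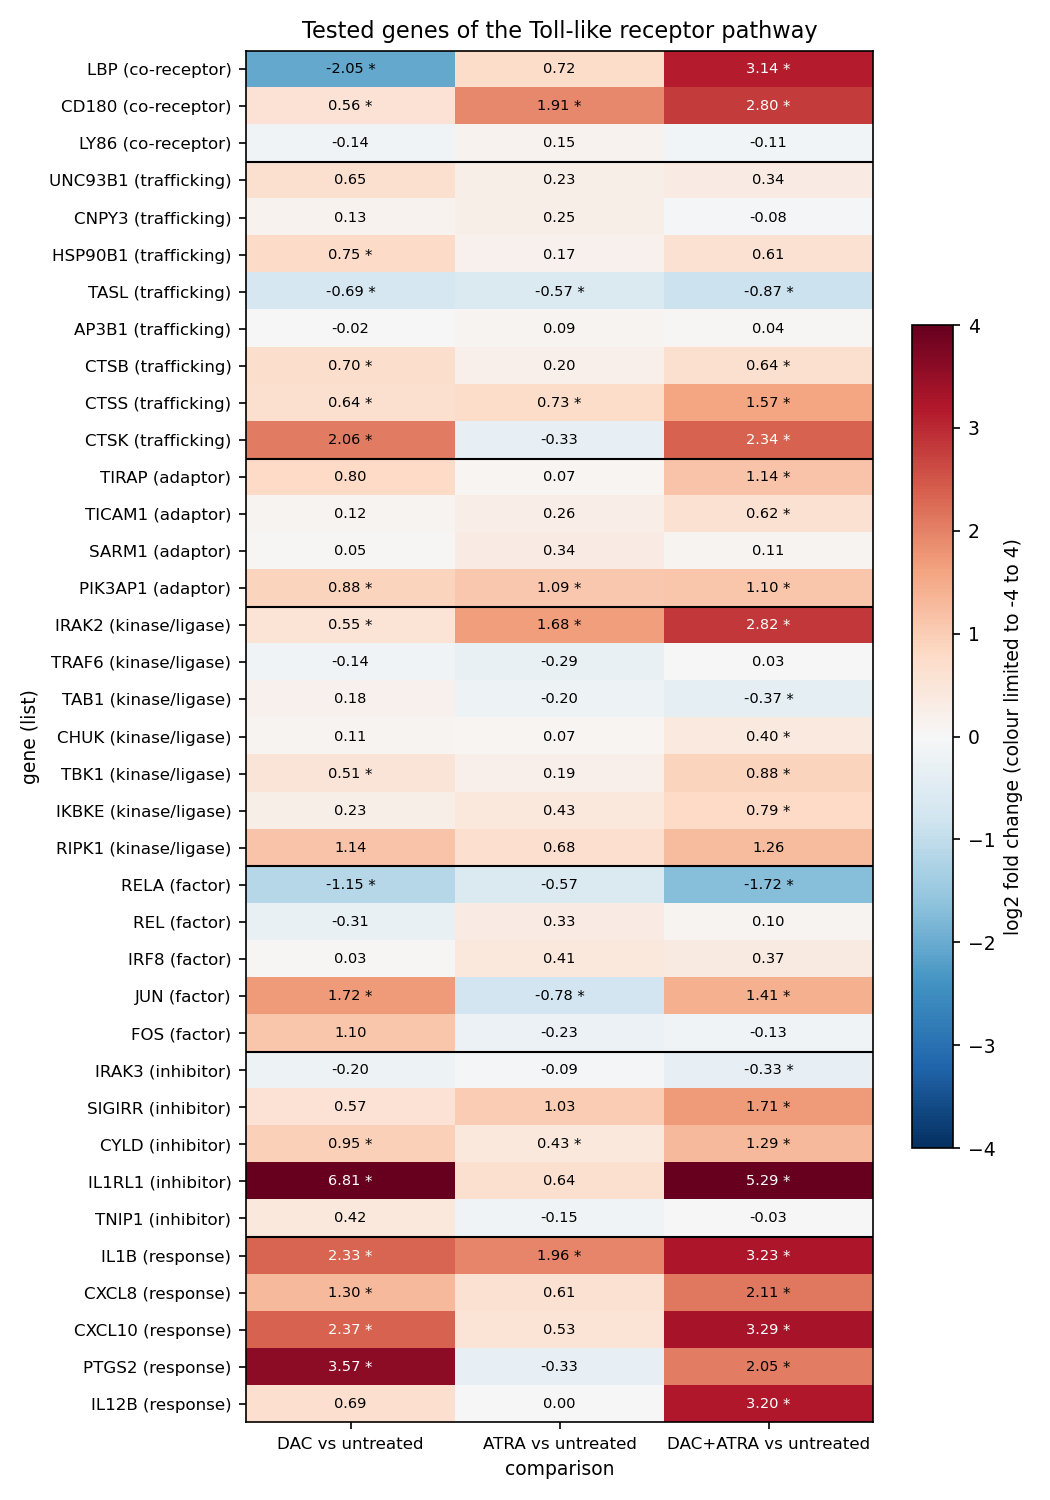
Log2 fold changes (numbers and colour, red higher and blue lower than untreated, colour limited at 4 in both directions) of the 37 tested pathway genes in the 3 comparisons with untreated cells, by list. Asterisks mark an adjusted p under 0.01 in limma, with 25 in the DAC + ATRA column, 18 in the DAC column and 8 in the ATRA column. The fitted values of IL1RL1 depend on the pseudocount, as its untreated libraries have 0 reads.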

How the data were processed

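RNA-seq was analysed for 12 U937 libraries, 3 per group. The deposited signal values are the authors' counts per UCSC known-gene transcript on hg38, divided by 1 size factor per library. The submitters' processing notes name FastQC, STAR, HTSeq and DESeq2; their versions, the HTSeq mode and how strand was handled are not given in the sources used here. The libraries were rRNA-depleted and strand-specific. All values were whole multiples of 1 read (100% within 0.001 read), so reads were recovered.

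The family members and gene lists were chosen with earlier results of these data known. Protein-coding transcripts with at least 10 normalized reads in at least 3 libraries were tested with limma 3.58.1 (trend, robust) in R 4.3.3 on log2(value + 1), all libraries in 1 fit, Benjamini-Hochberg within each comparison, threshold 0.01. Transcripts were placed, typed and measured for bases of their own with GENCODE 44, which matched 174768 by identifier. Where a member's version differed, the later version was used. From each list the highest and lowest tested members and those past the threshold were eligible to be named. edgeR 4.0.16 and DESeq2 1.42.0 ran on the recovered reads as alternatives, beside other scalings, filters, pseudocounts, transcript sets and leaving out each library. edgeR without DAC library 6, edgeR on all transcripts and the minimum of 100 bases for the order of levels were added after the data were seen. The tests were tested on simulated data. Replicate libraries differed by more than counting noise (chi-square per degree of freedom 3.39 to 15.9), so each was kept as its own library. Some marker genes are not reported here. The 95% intervals are those of limma and rest on the spread between libraries, while the limits of 3 reads cover counting error only. Tables and figures were made with Python 3.11.15, pandas 2.3.3, numpy 2.4.6 and matplotlib 3.10.9.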

Additional observations from a re-analysis of the deposited data

How the results depend on the processing

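No paired analysis was possible because the value columns carry the group but no replicate number. Of 613 log2 fold changes of the 4 tested receptors recomputed under alternatives, 587 stayed on their side of the threshold, 16 no longer passed and 10 newly passed. No called change turned direction, but 19 uncalled values had the opposite sign, in 4 results: TLR3 with ATRA, where 0.07 turned to between -0.02 and -0.66 (pseudocount 0.1), TLR4 with DAC, where -0.00 reached 0.15, and the interactions of TLR2 and TLR6, which reached -0.05 and -0.03. The order of levels was the same per kb of whole transcript and with all transcripts of a symbol summed. With only the groups compared in the fit, 0 receptors were called with ATRA in place of 2 (TLR2, adjusted p = 0.0107; TLR6, 0.0122); fewer libraries then enter the estimate of spread. For the interaction, 1 receptor (TLR4) in place of 0 was called with edgeR and TMM, with DESeq2, and at a threshold of 0.05. Leaving out each library in turn gave 1 to 2 called receptors with DAC, 1 to 2 with ATRA, 4 with DAC + ATRA, 2 to 4 for DAC + ATRA against DAC, 3 to 4 for DAC + ATRA against ATRA and 0 for the interaction. For DAC + ATRA against ATRA, leaving out DAC + ATRA library 11 or 12 lost the call of TLR2 (adjusted p = 0.0110 and 0.0109), and for DAC + ATRA against DAC leaving out DAC library 4 did (0.0126), whereas leaving out ATRA library 9 added TLR3 (0.00242). The cause of these differences was not tested. TLR3, TLR5, TLR7, TLR8, TLR9, TLR10 and the coding transcript of TLR1 each have fewer than 100 reads over all libraries.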
